A study of Mus musculus with 32 samples.

Results

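Iron handling was followed through 8 genes for storage, release, export and uptake: Ftl1, Fth1, Hmox1, Slc40a1, Cp, Tfrc, Slc11a1 and Slc11a2. They were taken by symbol from a list of 9 genes, and they are 8 of the 17586 genes in the deposited expression table. The listed gene Lcn2 has no row in the table used here and was not analysed here. The cells were sorted from mouse brain in 4 populations of 8 libraries each. Differentiated macrophages of the tumour, its undifferentiated macrophages and its microglia came from chimeric mice with an intracranial GL-261 glioma, a tumour line syngeneic to these mice. Their labels give the graft as PEP-3 into WT or WT into PEP-3, with 4 libraries of each kind in every tumour population, and WT or Pep3 below means the recipient in these populations. Normal microglia carried neither tumour nor graft and came from C57BL/6J mice, called WT here, or from Pep3/CD45.1 mice, with 4 libraries of each. No drug treatment is labelled. Neither the age of the mice nor the gates used for sorting are given in the sources used here.

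Macrophages recycle iron. Haem oxygenase frees iron from haem, ferritin shells of light and heavy chains store it, and ferroportin carries it out of the cell, where the ferroxidase ceruloplasmin helps load it onto transferrin. Transferrin-bound iron enters through the transferrin receptor and leaves the endosome through a divalent metal transporter. Iron regulatory proteins adjust this system after transcription: in low iron they bind hairpins called iron-responsive elements, which blocks ferritin translation and protects the receptor mRNA. In the brain, microglia are among the cells that hold ferritin iron.

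The hairpins of both ferritin chains and of the transferrin receptor are printed because they show the opposite placement through which 1 signal acts on storage and uptake. RNA abundance does not measure the block of ferritin translation. They were read from GENCODE vM21 transcripts (GRCm38), 5′ to 3′ on the transcript strand, with T for U. Capitals mark the bulged C and the loop of 6 bases, and the bases between them form 5 paired positions of the upper stem. The Fth1 match lies at transcript positions 93 to 109 in the 5′ UTR, before a coding start at 225 (chromosome 19), and the Ftl1 match at 84 to 100, before a coding start at 254 (chromosome 7).
Fth1 5′ UTR: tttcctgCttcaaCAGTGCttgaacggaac
Ftl1 5′ UTR: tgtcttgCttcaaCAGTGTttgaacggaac
The 4 Tfrc matches lie in the 3′ UTR on chromosome 16, after a coding end at position 2432, and start at positions 3321, 3700, 3765 and 3812.
Tfrc 3′ UTR site 1: taattatCggaagCAGTGCcttccataatt
Tfrc 3′ UTR site 2: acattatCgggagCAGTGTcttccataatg
Tfrc 3′ UTR site 3: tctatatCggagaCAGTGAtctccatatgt
Tfrc 3′ UTR site 4: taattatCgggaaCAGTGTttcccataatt
The motif searched was CNNNNNCAGTGN, followed by 5 bases that pair with the first N positions by Watson-Crick or G-U pairs. Among 21875 genes, 28 (0.128%) held such a match in a 5′ UTR and 127 (0.581%) in a 3′ UTR. A match describes the sequence and says nothing of binding in these cells.

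The deposited values were signed scores centred on 0 for each gene, so they rank libraries for a gene but give no level, and no fold change could be formed. The scores of Tfrc and Ftl1 varied little, with SDs over all libraries of 0.405 and 0.487, and those of Hmox1 varied most of the 8 genes, with an SD of 1.34. Sequencing depth is unknown. The table had lost 11 directions among its 32 libraries, and 9 libraries kept under 50% of their own variation. Of these, 4 were normal microglia (libraries 1, 10, 18 and 26), 1 was tumour microglia (27), 2 were differentiated macrophages (28 and 31) and 2 were undifferentiated macrophages (8 and 29). The markers followed the split between macrophages and microglia, and their lists were chosen with earlier results of these data known. All 6 microglia markers were called lower and all 6 markers of monocyte-derived macrophages higher in both macrophage populations than in tumour microglia. Among all genes, 6.35% were called lower and 37% higher in differentiated, and 5.19% and 36.7% in undifferentiated macrophages. Between differentiated and undifferentiated macrophages, 1 of the 6 macrophage markers was called (lower in differentiated) and none of the microglia markers. Between tumour and normal microglia, 1 of the 6 microglia markers was called (lower in tumour microglia) and none of the macrophage markers. In the sorted bulk RNA, fewer cells of a type and less RNA per cell cannot be told apart. Normal microglia were run in experiments 1 and 2 and all tumour populations in experiments 3 and 4, so tumour, graft and experiment cannot be told apart in any comparison with normal microglia. Within experiment 3 the macrophages came from WT and the tumour microglia from Pep3 recipients, and in experiment 4 the reverse. A difference of macrophages from tumour microglia within 1 experiment is therefore also one between recipients. Within 1 recipient strain it is also one between experiments. In each chimera the graft came from the other strain, so the recipient strain does not by itself give the strain of the sorted cells.

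**Figure D1:**
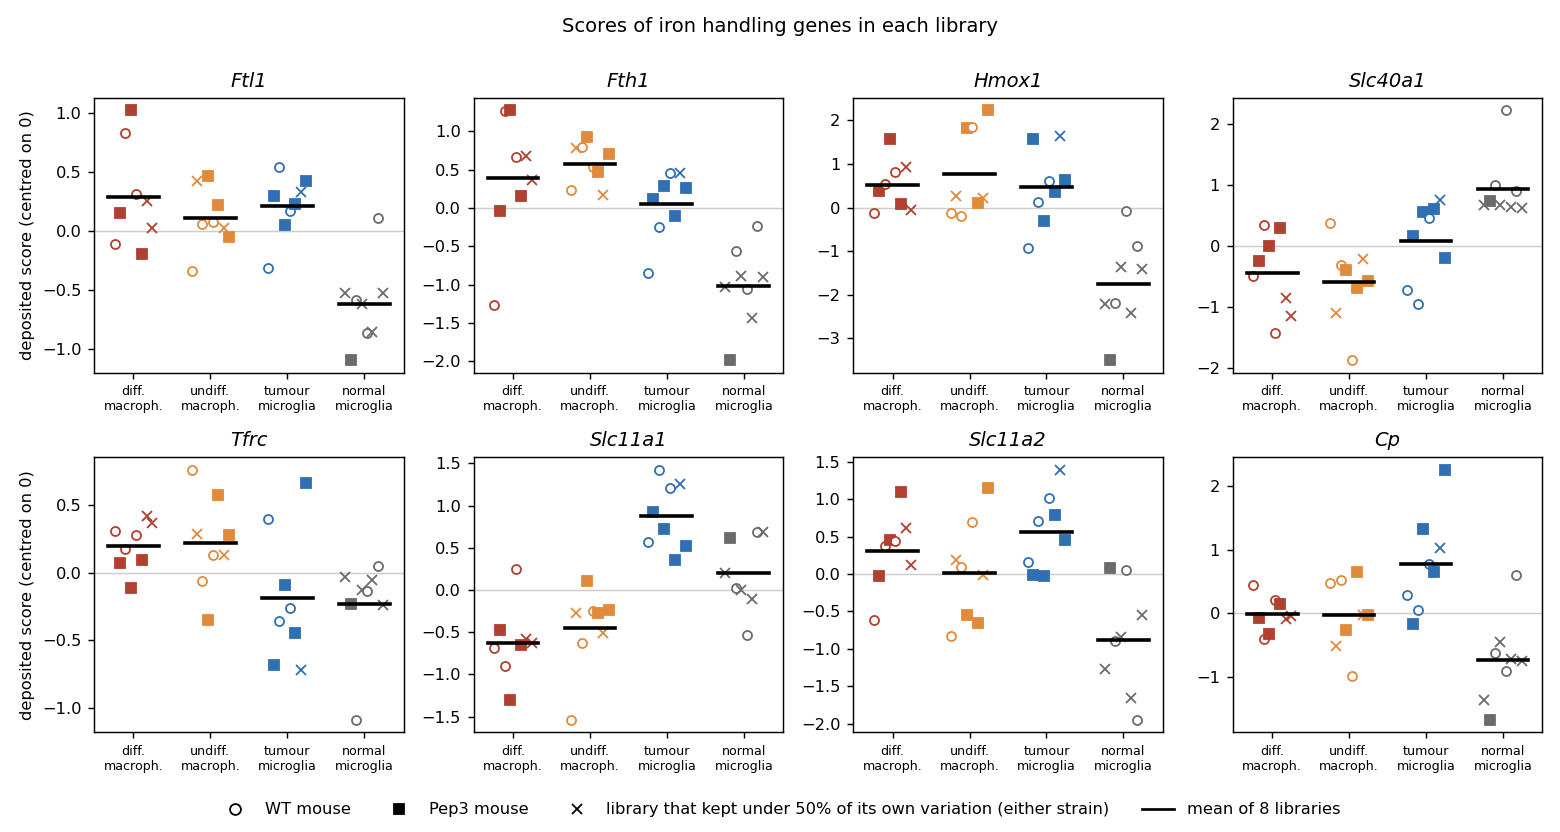
Deposited scores (y axis, centred on 0, no unit) of the 8 iron handling genes in each of 32 libraries, by population on the x axis, with horizontal lines at the mean of 8 libraries, open circles for WT mice or recipients, filled squares for Pep3 mice or recipients and crosses for libraries that kept under 50% of their own variation. On average, normal microglia sit lowest for Ftl1, Fth1, Hmox1, Slc11a2 and Cp and highest for Slc40a1, and tumour microglia sit highest for Slc11a1. The Tfrc mean is also lowest in normal microglia, at -0.23 against -0.19 in tumour microglia.

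Tumour microglia and normal microglia differed in the RNA scores of genes for storage, haem breakdown, endosomal transport and iron oxidation. Ftl1, Fth1, Hmox1, Slc11a2 and Cp were called higher in tumour microglia, and none of the 8 genes was called lower. Among all 17586 genes, 4.66% were called higher and 12% lower. The median difference of the 8 genes was 1.03 units, against -0.25 units over all genes. The 5 calls fell to 2 with library weights and to 0 without normal microglia library 1, where 171 genes in all were called, against 2936 with every library.

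Macrophages differed from tumour microglia in fewer of these genes, and only downward. Slc11a1 and Cp were called lower in differentiated macrophages than in tumour microglia, against a background of 37% of genes called higher and 6.35% lower. In undifferentiated macrophages Slc11a1 alone was called lower than in tumour microglia, against 36.7% higher and 5.19% lower. The median over all genes was 0.65 and 0.72 units in these comparisons, and that of the 8 genes was -0.20 and -0.33 units. With library medians subtracted, the members called lower were 3 for differentiated and 5 for undifferentiated macrophages. Of all 17586 genes, 3385 and 2862 were called lower in that setting, more than the 1116 and 913 of the main fit.

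Differentiated and undifferentiated macrophages were not separated by any of the 8 genes. None was called by limma and none had an unadjusted p below 0.05, while 0.0114% of all genes were called (2 genes) and 491 had an unadjusted p below 0.05. The largest differences were those of Hmox1, at -0.79 ± 0.55 units (SE; 95% interval -1.93 to 0.36), and Fth1, at -0.56 ± 0.40 units (-1.39 to 0.27). These intervals hold differences as large as some called in the other comparisons, so the populations are not shown to be alike.

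Against normal microglia, differentiated macrophages had Ftl1, Fth1, Hmox1 and Slc11a2 called higher and Slc40a1 and Slc11a1 called lower. The background was 24.7% of genes called higher and 8.02% lower. Undifferentiated macrophages had Fth1 and Hmox1 called higher and Slc40a1 called lower, against 21.8% higher and 6.18% lower. The 6 calls of differentiated macrophages dropped to 0 without normal microglia library 10 or without differentiated macrophage library 28. Without normal microglia library 10, 1853 genes in all were called in that comparison, against 5757 with every library. The 3 calls of undifferentiated macrophages ranged from 2 to 4 over the libraries left out in turn. All comparisons with normal microglia share the same 8 libraries of that group.

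**Figure D2:**
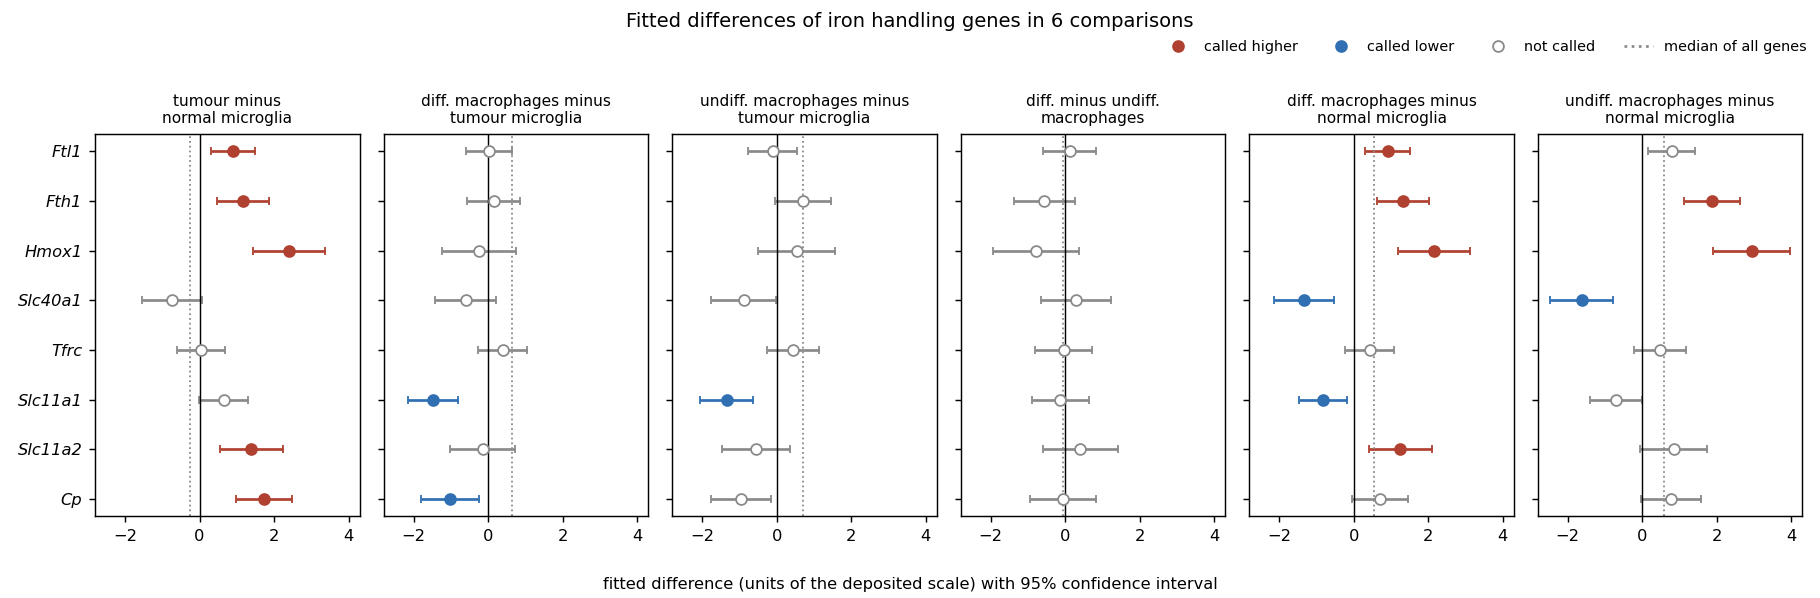
Fitted differences of the 8 genes (rows) in 6 comparisons (panels), first population minus second, in units of the deposited scale on the x axis, with 95% confidence intervals; red points were called higher, blue points lower and open points not called. Hmox1 reaches 2.41 units in tumour minus normal microglia, and Slc11a1 lies at -1.47 and -1.34 units in the comparisons of macrophages with tumour microglia, left of the dotted median of all genes.

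Ferritin light chain, Ftl1, ran from -0.31 to 0.55 in tumour microglia with a median of 0.26, against -1.09 to 0.11 in normal microglia with a median of -0.60. Only library 25 of normal microglia lay above the lowest tumour microglia library. The difference was 0.895 ± 0.288 units (adjusted p = 0.0359), and it was 0.65 units between the mean scores of WT mice and 1.02 units between those of Pep3 mice. The fit to WT mice alone gave -0.013 units. Differentiated macrophages scored from -0.19 to 1.02 with a median of 0.20, and undifferentiated macrophages from -0.34 to 0.47 with a median of 0.07. Both overlapped with tumour microglia over most of their range. Differentiated macrophages exceeded normal microglia by 0.91 ± 0.29 units (adjusted p = 0.0212), and undifferentiated macrophages stood 0.78 ± 0.31 units above normal microglia without passing the test (adjusted p = 0.0606). The calls were fragile. That of tumour against normal microglia was lost without any 1 of 10 libraries, namely normal microglia 1, 9, 10, 18 and 26 and tumour microglia 6, 11, 19, 27 and 30, with differences from 0.58 to 1.21 units. That of differentiated macrophages against normal microglia was lost without normal microglia 10, 18 or 26, differentiated macrophage 28 or undifferentiated macrophage 8, and was 0.49 units (adjusted p = 0.241) with library medians subtracted. The paralogue Ftl2, with which reads of Ftl1 may be shared, was called higher too, by 1.51 ± 0.32 units in tumour against normal microglia (adjusted p = 0.00306) and by 1.17 ± 0.32 units in differentiated macrophages against normal microglia (adjusted p = 0.00909).

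Ferritin heavy chain, Fth1, carries the ferroxidase activity of the shell. Its scores in undifferentiated macrophages ran from 0.17 to 0.92 with a median of 0.62, against -1.99 to -0.24 in normal microglia with a median of -0.97. Those populations did not overlap. The difference was 1.88 ± 0.36 units (adjusted p = 0.000755), and the call remained with each of the 32 libraries left out in turn, at 1.51 to 2.41 units. Differentiated macrophages spread more widely, from -1.27 to 1.28 with a median of 0.52, with library 4 at the bottom, and stood 1.32 ± 0.34 units above normal microglia (adjusted p = 0.00583). Tumour microglia ran from -0.85 to 0.46 with a median of 0.19. Their lower libraries overlapped with normal microglia, and the difference was 1.17 ± 0.34 units (adjusted p = 0.0203). The tumour microglia call was lost on omission of normal microglia 1, 10, 18 or 26 or of tumour microglia 27, with 0.69 units as the lowest difference. The differentiated macrophage call was lost without normal microglia 10 or 18, differentiated macrophage 28 or undifferentiated macrophage 8, with 0.77 units as the lowest, and was 0.89 units (adjusted p = 0.0602) with library medians subtracted. In the fit to WT mice alone, none of these differences from normal microglia passed the test and all turned sign. They were -1.39 units in differentiated macrophages, -0.039 units in undifferentiated macrophages and -1.17 units in tumour microglia. That fit kept the terms for the lost directions. Mean deposited scores of WT mice differed by 1.06, 1.16 and 0.68 units in that order, all positive. Between undifferentiated macrophages and tumour microglia Fth1 differed by 0.71 ± 0.36 units (adjusted p = 0.122), and by -0.01 units with library medians subtracted.

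Hmox1, the inducible haem oxygenase, had the largest differences among the 8 genes. Undifferentiated macrophages scored from -0.19 to 2.24 with a median of 0.24, against -3.50 to -0.08 in normal microglia with a median of -1.81. Library 17 was the highest of normal microglia, and the populations overlapped only at their edges. The difference was 2.94 ± 0.50 units (adjusted p = 0.000235), kept as a call with every library left out in turn at 2.52 to 3.79 units. Differentiated macrophages ran from -0.13 to 1.58 with a median of 0.46 and tumour microglia from -0.93 to 1.65 with a median of 0.49. The 3 tumour populations covered much the same range, and no difference among them passed the test. With library weights, undifferentiated macrophages exceeded tumour microglia by 1.32 units (adjusted p = 0.0444). Differentiated macrophages exceeded normal microglia by 2.15 ± 0.47 units (adjusted p = 0.00182), a call lost without normal microglia 10 or 18 or differentiated macrophage 28, at 1.39 units as the lowest. Tumour microglia exceeded normal microglia by 2.41 ± 0.47 units (adjusted p = 0.00179), a call lost without normal microglia 1 or 18, at 1.73 units as the lowest. The difference between mean scores of tumour and normal microglia was 1.71 units in WT mice and 2.74 units in Pep3 mice.

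Slc40a1 encodes ferroportin, the known cellular iron exporter. Differentiated macrophages ran from -1.42 to 0.35 with a median of -0.36, against 0.62 to 2.23 in normal microglia with a median of 0.71. Every normal microglia library lay above every differentiated macrophage library, and the difference was -1.34 ± 0.39 units (adjusted p = 0.012). Undifferentiated macrophages ran from -1.87 to 0.38 with a median of -0.48, also without overlap, and differed from normal microglia by -1.63 ± 0.41 units (adjusted p = 0.0066). Tumour microglia lay between, from -0.95 to 0.76 with a median of 0.32. Their difference from normal microglia was -0.74 ± 0.38 units (adjusted p = 0.188), which did not pass the test. Against tumour microglia the macrophage differences were -0.60 ± 0.40 units for differentiated (adjusted p = 0.231) and -0.89 ± 0.42 units for undifferentiated macrophages (adjusted p = 0.0903). With library medians subtracted both passed, at -1.27 units (adjusted p = 0.0208) and -1.61 units (adjusted p = 0.00844). The undifferentiated call against normal microglia was lost without normal microglia 2 or differentiated macrophage 31, at -1.20 units as the smallest size, and the differentiated call without normal microglia 2 or 10, differentiated macrophage 28 or 31 or undifferentiated macrophage 8.

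Ceruloplasmin, Cp, oxidises exported iron for transferrin. Tumour microglia had the highest scores, from -0.17 to 2.26 with a median of 0.71, against -1.67 to 0.60 in normal microglia with a median of -0.74. The highest normal microglia library, 25, lay within the tumour microglia range. The difference was 1.73 ± 0.36 units (adjusted p = 0.00287) and was lost as a call only without normal microglia library 1 (adjusted p = 0.113), within 1.42 to 2.04 units over the 32 omissions. Differentiated macrophages kept to a narrow band from -0.40 to 0.45 with a median of -0.06. They differed from tumour microglia by -1.03 ± 0.38 units (adjusted p = 0.0301), a call lost without any 1 of 9 libraries, namely tumour microglia 14, 19, 27 and 30, differentiated macrophages 12, 15 and 28 and undifferentiated macrophages 8 and 29, at -1.30 to -0.82 units. It turned to 0.70 units in the fit to WT recipients alone, without passing the test. Mean deposited scores of WT recipients differed by -0.50 units. Undifferentiated macrophages ran from -0.98 to 0.64 with a median of -0.03 and differed from tumour microglia by -0.96 ± 0.39 units (adjusted p = 0.0517), at -1.68 units (adjusted p = 0.002) with library medians subtracted. Between mean scores within an experiment, the difference of differentiated macrophages from tumour microglia was -0.98 units in experiment 3 and -0.61 units in experiment 4. Cp was the only member called in opposite directions in the comparisons of tumour with normal microglia and of macrophages with tumour microglia.

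Tfrc, the transferrin receptor, showed no called difference in any comparison. Differentiated macrophages scored from -0.11 to 0.42 with a median of 0.23 and undifferentiated macrophages from -0.35 to 0.76 with a median of 0.21. Tumour microglia ran from -0.72 to 0.66 with a median of -0.31, and normal microglia from -1.09 to 0.05 with a median of -0.13. All 4 ranges overlapped. The difference of tumour from normal microglia was 0.04 ± 0.31 units, with a 95% interval from -0.61 to 0.68. Those of macrophages from either microglia population lay between 0.39 and 0.47 units, the lowest adjusted p being 0.295, and the differences from tumour microglia turned to -0.28 and -0.29 units with library medians subtracted.

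Slc11a1, also called Nramp1, pumps divalent metals out of the phagosome of macrophages. Differentiated macrophages scored from -1.31 to 0.25 with a median of -0.64 and undifferentiated macrophages from -1.54 to 0.11 with a median of -0.27, against 0.36 to 1.43 in tumour microglia with a median of 0.83. Neither macrophage population overlapped with tumour microglia. The differences were -1.47 ± 0.33 units for differentiated (adjusted p = 0.00102) and -1.34 ± 0.34 units for undifferentiated macrophages (adjusted p = 0.0032). Both calls held with each of the 32 libraries left out in turn, at -1.75 to -1.21 and at -1.53 to -1.08 units. Within experiment 3 the mean scores differed by -1.11 and -1.36 units, and within experiment 4 by -1.88 and -1.28 units, for differentiated and for undifferentiated macrophages in that order. Normal microglia lay in the middle, from -0.54 to 0.69 with a median of 0.11. Tumour microglia stood 0.64 ± 0.31 units above normal microglia (adjusted p = 0.16), which did not pass the test. The difference of differentiated macrophages from normal microglia was -0.83 ± 0.32 units (adjusted p = 0.0471), a call at the edge of the threshold that was lost in 26 of the 32 omissions, at -1.10 to -0.47 units. For undifferentiated macrophages the difference was -0.70 ± 0.34 units (adjusted p = 0.118), and -1.18 units (adjusted p = 0.0178) with library medians subtracted.

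Slc11a2 encodes the divalent metal transporter DMT1, which moves iron out of the endosome. Tumour microglia ran from -0.02 to 1.39 with a median of 0.58, against -1.95 to 0.08 in normal microglia with a median of -0.87. The populations met only at their edges, and the difference was 1.39 ± 0.41 units (adjusted p = 0.0223). Differentiated macrophages, from -0.61 to 1.09 with a median of 0.41, exceeded normal microglia by 1.25 ± 0.41 units (adjusted p = 0.0239). Undifferentiated macrophages, from -0.83 to 1.14 with a median of 0.04, were 0.85 ± 0.44 units above normal microglia without passing the test (adjusted p = 0.145). The tumour microglia call was lost without normal microglia 1, 10 or 18 or tumour microglia 27, at 0.59 units as the lowest. The differentiated macrophage call was lost without normal microglia 1, 10 or 18 or differentiated macrophage 23 or 28, at 0.34 units as the lowest, and was 0.83 units (adjusted p = 0.176) with library medians subtracted. The sign turned in the fit to Pep3 mice alone for tumour microglia, at -0.51 units. It also turned in the fit to WT mice alone for differentiated macrophages, at -0.095 units. Between mean deposited scores, those differences were 1.04 units in Pep3 mice and 1.22 units in WT mice.

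**Figure D3:**
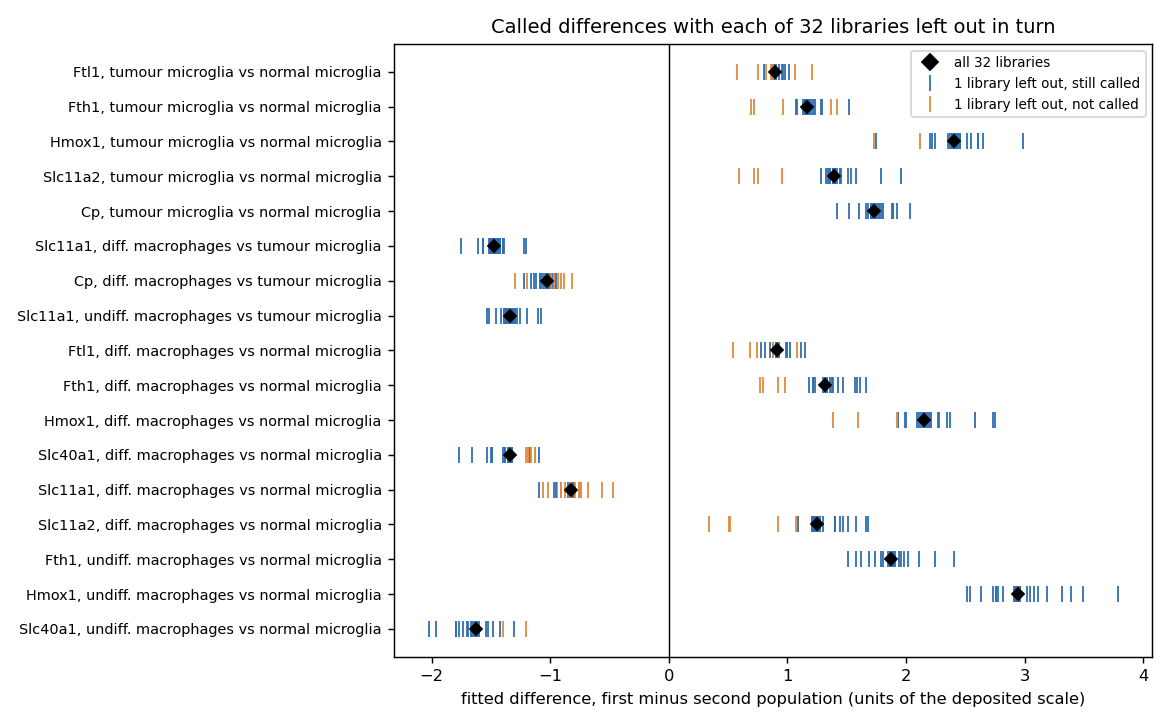
Fitted differences of the 17 called gene and comparison pairs on the x axis (units of the deposited scale), with a diamond for all 32 libraries and a tick for each fit that left out 1 library, blue where the pair was still called and orange where it was not. No tick crosses 0, and Slc11a1 in macrophages against tumour microglia and Fth1 and Hmox1 in undifferentiated macrophages against normal microglia have blue ticks only.

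Of the 48 gene and comparison pairs, 17 were called. For none of the 8 genes was the difference between populations called unlike in WT and Pep3 mice, a test in which strain and experiment cannot be told apart. Among all 17586 genes, 884 were so called in tumour against normal microglia and 79 in differentiated macrophages against tumour microglia. The other comparisons had from 0 to 4 such genes, so the absence of called members says little there. The order of the population means differed between genes. For Ftl1, Fth1, Hmox1, Slc11a2 and Cp normal microglia came last, for Slc40a1 they came first, and for Slc11a1 both macrophage populations came last. For Tfrc, which was not called, normal microglia also came last, at -0.23 against -0.19 in tumour microglia. In WT mice alone or in Pep3 mice alone, with 4 libraries per population, limma called at most 1 of the 8 genes in a comparison.

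Other genes of iron and haem metabolism were counted from fixed lists of 60 genes, of which 44 were measured. In tumour against normal microglia, 4 were called higher and 4 lower (18.2% of the 44, against 16.7% of all genes). Differentiated macrophages had 11 higher and 2 lower than tumour microglia (29.5%, against 43.4% of all genes), and undifferentiated macrophages had 10 higher and 4 lower (31.8%, against 41.9%). Against normal microglia the counts were 8 higher and 4 lower for differentiated macrophages (27.3%, against 32.7%), and 5 higher and 4 lower for undifferentiated macrophages (20.5%, against 28%). These shares were near or below the background, so the lists as a whole did not stand out. No gene of the lists was called between differentiated and undifferentiated macrophages.

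Among other uptake genes, reductases were higher in the macrophages than in tumour microglia. The metalloreductases Steap2 and Steap4, whose family reduces iron for transport, were lower in tumour than in normal microglia, at -1.59 ± 0.30 units (adjusted p = 0.00139) for Steap2 and -1.67 ± 0.39 units (adjusted p = 0.00634) for Steap4. Both were higher in macrophages than in tumour microglia, Steap2 by 1.97 ± 0.31 units in differentiated (adjusted p = 5.65e-05) and 2.23 ± 0.32 units in undifferentiated macrophages (adjusted p = 3.63e-05). Steap4 exceeded tumour microglia by 1.74 ± 0.41 units in differentiated macrophages (adjusted p = 0.00157) and by 1.53 ± 0.42 units in undifferentiated ones (adjusted p = 0.00612). Cybrd1, a ferric reductase, was higher by 2.49 units in differentiated and by 2.27 units in undifferentiated macrophages than in tumour microglia, and the zinc and iron transporter Slc39a14 was 1.03 units higher in tumour than in normal microglia. Slc22a17, described as a lipocalin receptor, was lower in macrophages than in normal microglia, at -2.13 units in differentiated and -1.38 units in undifferentiated macrophages, and transferrin, Trf, was lower in undifferentiated macrophages, at -1.60 units. Without the 9 weakly represented libraries, and with the terms for the lost directions kept, the Slc22a17 differences turned to 0.80 and 0.96 units, and in WT mice alone to 0.54 and 1.43 units. Trf turned to 0.016 units in Pep3 mice alone.

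Among haem genes, Hp, which encodes the haemoglobin-binding protein haptoglobin, had the largest called differences. It ran from 0.72 to 5.27 in undifferentiated macrophages with a median of 1.48, against -2.94 to 0.22 in tumour microglia with a median of -2.22. The populations did not overlap, and the difference was 4.53 ± 0.86 units (adjusted p = 0.000355). In differentiated macrophages Hp exceeded tumour microglia by 2.89 ± 0.82 units (adjusted p = 0.00687). Haptoglobin is also a granule protein of neutrophils, and of 8 neutrophil markers the 2 that were measured had mean scores from -0.18 to 1.91 in differentiated and from -0.39 to 1.16 in undifferentiated macrophages, against -1.43 to 0.13 in tumour microglia. Their part in the result was not tested. Slc46a1, a folate carrier that can also import haem, fell in macrophages relative to normal microglia, at -2.13 ± 0.41 units in differentiated (adjusted p = 0.000716) and -2.42 ± 0.44 units in undifferentiated macrophages (adjusted p = 0.000471). No macrophage library reached the lowest normal microglia library, since macrophage scores ended at -0.11 and -0.10 and normal microglia began at 0.94.

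Haem synthesis and breakdown genes varied too. Alas1, which starts haem synthesis, was higher than in tumour microglia by 1.24 units in differentiated and 1.78 units in undifferentiated macrophages, and 1.50 units higher in undifferentiated macrophages than in normal microglia. The constitutive haem oxygenase Hmox2 was lower in undifferentiated macrophages than in tumour microglia, at -2.10 ± 0.47 units (adjusted p = 0.0012). Blvrb, a biliverdin reductase downstream of haem oxygenase, was 1.83 ± 0.56 units higher in tumour than in normal microglia (adjusted p = 0.0293) and 1.68 units higher in differentiated macrophages than in normal microglia. The haem-binding protein gene Hebp1 was 1.44 units higher in differentiated macrophages than in tumour microglia, but -1.84 units without the 9 weakly represented libraries when the terms for the lost directions were kept, and -1.87 units in Pep3 recipients alone.

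In comparisons that include tumour microglia, other ferroxidases were called in directions opposite to the Cp differences in the fit to all libraries. The Cp difference of undifferentiated macrophages from tumour microglia had not passed the test (adjusted p = 0.0517). Heph, the membrane-bound relative of ceruloplasmin, was higher than in tumour microglia by 2.02 ± 0.34 units in differentiated (adjusted p = 0.000104) and 2.42 ± 0.36 units in undifferentiated macrophages (adjusted p = 4.26e-05), and its difference in tumour against normal microglia was -1.05 ± 0.33 units (adjusted p = 0.0315). Hephl1, a further family member, was called in the same directions, at 1.10, 1.60 and -1.54 units in those comparisons. In WT mice alone the macrophage differences of Hephl1 turned to -0.41 and -0.76 units, and that of Heph in tumour against normal microglia to 0.35 units. Against normal microglia, Heph was called higher by 0.97 ± 0.33 units in differentiated (adjusted p = 0.0292) and 1.37 ± 0.35 units in undifferentiated macrophages (adjusted p = 0.00743). Those calls were lost in 12 and 3 of the 32 omissions. The Cp differences there had the same sign, at 0.71 and 0.77 units, and did not pass the test. Astrocytes and endothelial cells are other sources of brain RNA. Of 6 astrocyte markers, 5 were called higher in each macrophage population than in tumour microglia. Among all genes, 37% were called higher there in differentiated and 36.7% in undifferentiated macrophages. Mean scores of the astrocyte markers ran from 0.16 to 1.18 in differentiated and 0.25 to 1.37 in undifferentiated macrophages, against -1.37 to 0.43 in tumour microglia. Of 5 endothelial markers measured, 3 were higher in each, with mean scores from 0.05 to 1.20 in differentiated and 0.07 to 1.18 in undifferentiated macrophages, against -1.42 to -0.13 in tumour microglia. Of 4 oligodendrocyte markers measured, 1 was higher in each. Their part in these results was not tested.

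Among the remaining named genes, Ncoa4, the receptor that delivers ferritin for breakdown, was 1.35 units higher in undifferentiated macrophages than in normal microglia (adjusted p = 0.0462), a call lost in 23 of the 32 omissions. For mitochondrial iron, the importer Slc25a37 was lower in differentiated macrophages than in normal microglia, at -1.45 units. Sfxn1, a mitochondrial serine carrier, was lower in undifferentiated macrophages than in tumour microglia, at -0.98 units (adjusted p = 0.0423), a call lost in 18 of the 32 omissions. Of the oxidative-stress genes listed with Hmox1, the thioredoxin reductase gene Txnrd1 was higher than in normal microglia by 1.34 units in differentiated macrophages, 1.51 units in undifferentiated macrophages and 1.39 units in tumour microglia. In WT mice alone it turned to -0.077 units in differentiated macrophages and -1.08 units in tumour microglia. The cystine transporter gene Slc7a11 was higher than in tumour microglia by 2.09 units in differentiated and 1.90 units in undifferentiated macrophages, and the quinone reductase gene Nqo1 by 1.56 and 1.24 units. For Hmox1 itself no difference between these populations passed the test, with 95% intervals from -1.25 to 0.75 units in differentiated and from -0.51 to 1.58 units in undifferentiated macrophages against tumour microglia. The factors Nfe2l2 and Bach1, which act on the Hmox1 promoter in opposite ways, were called in no comparison.

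**Figure D4:**
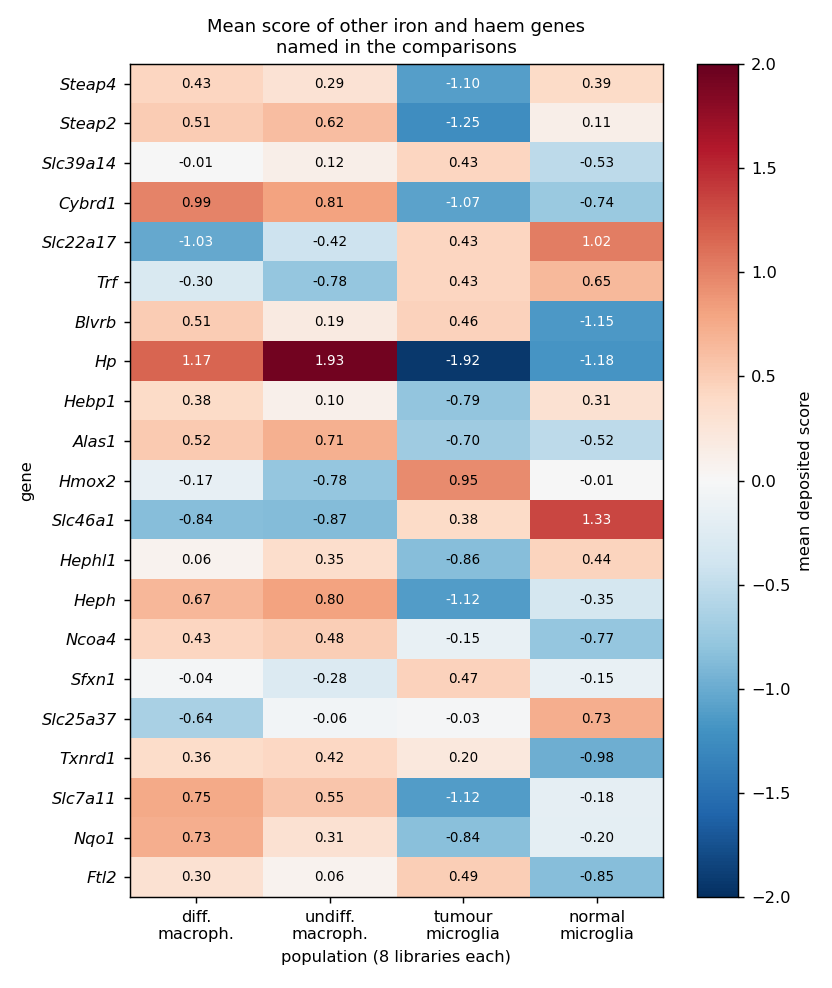
Mean deposited score (colour and printed value, no unit) of the 21 other iron and haem genes named in the comparisons (rows) in the 4 populations (columns, 8 libraries each). Hp reaches 1.93 in undifferentiated macrophages and -1.92 in tumour microglia, while Slc46a1 and Slc22a17 are highest in normal microglia, at 1.33 and 1.02.

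Of the 46 named gene and comparison pairs, 14 kept their call with each library left out in turn: Steap2, Slc7a11 and Heph in both macrophage populations against tumour microglia, Steap4 in differentiated macrophages and Hp, Hmox2, Alas1 and Hephl1 in undifferentiated macrophages against tumour microglia, Slc46a1 in both macrophage populations and Hp in undifferentiated macrophages against normal microglia. The other 32 lost it in 1 to 23 of the 32 omissions, and none changed sign there. In other settings, 28 of the 46 kept the call with library medians subtracted and 26 with library weights. It held in 25 without the 9 libraries and the terms and in 3 with only both populations' libraries. None kept it in WT mice alone, in Pep3 mice alone or without the 9 libraries with terms kept. Steap2 in tumour against normal microglia was lost without normal microglia library 1 and Ftl2 without normal microglia library 26. Steap4 was lost there without normal microglia 1, 10 or 18 or tumour microglia 27. Blvrb was lost there without the same 4 libraries or tumour microglia 14 or 19, and Heph without normal microglia 1, 2, 10, 18 or 26 or tumour microglia 6, 11, 27 or 30. Hp in differentiated macrophages against tumour microglia was lost without differentiated macrophage 28 or undifferentiated macrophage 8, and Steap4 in undifferentiated macrophages against tumour microglia without tumour microglia 27 or differentiated macrophage 31. Ftl2 in differentiated macrophages against normal microglia was lost without normal microglia 10 or 26 or undifferentiated macrophage 8 or 29.

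Single libraries also decided other calls. Against tumour microglia, the Cybrd1 call of differentiated macrophages was lost without tumour microglia 27, at 1.21 units (adjusted p = 0.182), and that of undifferentiated macrophages without tumour microglia 27, undifferentiated macrophage 29 or differentiated macrophage 31, at 1.07 units as the lowest. Nqo1 was lost in differentiated macrophages without tumour microglia 27 or undifferentiated macrophage 8, at 0.95 units as the lowest, and in undifferentiated macrophages in 7 omissions, at 0.63 units as the lowest. Hebp1 was lost without tumour microglia 27, differentiated macrophage 28 or 31 or undifferentiated macrophage 8, at 0.82 units as the lowest. Hephl1 was lost in differentiated macrophages without tumour microglia 27 or differentiated macrophage 28 or 31, at 0.68 units as the lowest, and Alas1 without undifferentiated macrophage 8. Against normal microglia, Slc22a17 was lost in differentiated macrophages without normal microglia 10, at -1.15 units, and in undifferentiated macrophages in 9 omissions. Slc25a37 was lost without normal microglia 10, Trf without normal microglia 2 and Alas1 without normal microglia 26. Txnrd1 was lost in 7 omissions for differentiated macrophages, 4 for undifferentiated macrophages and 6 for tumour microglia. Hephl1 in tumour microglia was lost without normal microglia 1, 10 or 18 or tumour microglia 27, Slc39a14 in 9 omissions, at 0.61 units as the lowest, and Blvrb in differentiated macrophages in 9 omissions, at 0.80 units as the lowest.

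Markers of division moved with the comparison of tumour and normal microglia. Of 6 such markers 4 were called higher in tumour microglia, against 4.66% of all genes. Mean scores of the 6 ran from -0.67 to 1.41, against -2.20 to -0.54 in normal microglia. Of the same 6, 3 were called higher in differentiated macrophages than in normal microglia, against 24.7% of all genes. None was called in undifferentiated macrophages, against 21.8% of all genes called higher, and the median difference of the list was 0.83 units there. The part of these markers in the differences of Ftl1, Fth1, Hmox1, Slc11a2 and Cp was not tested. No erythroid marker of 5 was measured, so carry-over of red cell RNA was not examined for the haem genes.

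The genes with the most similar score pattern were listed for each member by Pearson's r over the 32 libraries, as a description without a test, since all genes share the same libraries and lost directions. Nearest to Ftl1 were Il2rg (r = 0.86), Fcgr4 (0.855) and Eme2 (0.851). Nearest to Fth1 were Rap1b (0.892), Rab32 (0.884) and Id2 (0.865). Hmox1 ran closest to Prdx2 (0.895), Xaf1 (0.867) and Dhx58 (0.866). For Slc40a1 the closest was Lrba (0.836), and Slc46a1 was also among the nearest 3 (0.823). Slc11a1 ran with Hnrnph1 (0.835), Trpm2 (0.828) and Meis3 (0.813). Slc11a2 had its nearest genes in Ppp1r15a (0.797) and Mx1 (0.772), and Cp in Lgals3bp (0.785), Eef1a1 (0.775) and Ctss (0.763). Tfrc had its nearest gene in 4632434I11Rik (0.831).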

How the data were processed

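RNA was measured in 32 libraries made with a SMART-Seq v4 low-input kit, per the labels' protocols. The submitters' processing notes name FastQC, STAR 2.5.0a, RSEM 1.3.0 and the genome build mm9. The deposited values are signed scores from -6.50 to 6.92, each gene centred on 0 overall and within each strain. How the authors made these scores is not given in the sources used here. No logarithm base is stated, so differences keep the unit of the table. The table spanned 21 of 32 dimensions. For each library, the share of its variation outside the lost directions was computed.

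All 17586 genes were fitted with limma 3.58.1 in R 4.3.3 (robust empirical Bayes, two-sided, Benjamini-Hochberg over all genes). A gene was called at adjusted p below 0.05. The fit had a mean per population and strain. Its covariates were 9 of the 11 lost directions, those other than the overall mean and the strain difference. This left 15 residual degrees of freedom, and contrasts were averaged over strains. No filter or pseudocount was used. The script was tested on simulated data. Within-strain and within-experiment values are differences of mean deposited scores, with no test. Nothing in the labels ties the libraries to separate animals. The p-values therefore reflect only the spread among libraries, which may be technical. No column was left unused (0 columns).

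Members and lists (transferrin cycle and metal uptake, haem, iron sensing and ferroxidases, mitochondrial iron, oxidative stress, paralogues, and markers of microglia, monocyte-derived macrophages, neutrophils, astrocytes, oligodendrocytes, erythroid, endothelial and dividing cells) were chosen with earlier results of these data known. All members are described. Other genes are named if called, at most the 3 largest differences per list and comparison, and 3 genes per member by likeness. One gene that the list rule names is not reported here, and 4 likeness genes known in the table only by an accession are not named. Nfe2l2 and Bach1 were named outside this rule after their values were seen. Alternatives were fits without the lost-direction terms, with library medians subtracted, with library weights, without the robust option, on both compared populations, one strain or without the 9 weakly represented libraries, and with each library left out.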

Additional observations from a re-analysis of the deposited data

Results flagged for a closer look

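For the 8 iron genes, 32 gene and population groups of 8 libraries were examined for a library far from the others, and 3 were found. Chance gives about 1 such group in 20. In normal microglia, library 17 (WT) had an Slc40a1 score of 2.23 and its nearest neighbour 1.01. In normal microglia, library 9 (WT) had a Tfrc score of -1.09 and its nearest neighbour -0.24. In undifferentiated macrophages, library 5 (WT) had an Slc11a1 score of -1.54 and its nearest neighbour -0.63. Without library 17 the Slc40a1 calls of both macrophage populations against normal microglia held, and without library 5 the Slc11a1 call of undifferentiated macrophages against tumour microglia held.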

How the results depend on the processing

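Depth is unknown, so it sets no limit that can be stated, and 15 residual degrees of freedom and the 9 weakly represented libraries limit precision. Of the 17 called member differences, the call held in all 17 without the robust option and without terms for the lost directions, in 14 with library medians subtracted and in 9 with library weights. It held in 9 without the 9 libraries and the terms, in 3 with only both populations' libraries, in 1 in Pep3 mice alone, in none in WT mice alone and in none without the 9 libraries with terms kept. These 5 fits hold fewer libraries. The sign turned for 6 of the 17 in WT mice alone and for 1 in Pep3 mice alone. Why calls were lost was not tested in any of the alternatives. No paired analysis was possible because the library numbers are unique to each library and no number is shared between populations. Subtracting library medians changed the split of all genes called to 1358 higher and 1336 lower in tumour against normal microglia (820 and 2116 as deposited), to 3486 and 3385 in differentiated macrophages against tumour microglia (6510 and 1116), to 2934 and 2862 in undifferentiated macrophages against tumour microglia (6448 and 913), to 1843 and 2300 in differentiated macrophages against normal microglia (4346 and 1411), and to 1373 and 1860 in undifferentiated macrophages against normal microglia (3838 and 1087).

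With each library left out in turn, members called ranged from 0 to 5 in tumour against normal microglia, from 1 to 2 in differentiated macrophages against tumour microglia, from 1 to 3 in undifferentiated macrophages against tumour microglia, from 0 to 0 in differentiated against undifferentiated macrophages, from 0 to 6 in differentiated macrophages against normal microglia and from 2 to 4 in undifferentiated macrophages against normal microglia. All genes called ranged from 171 to 3666 in tumour against normal microglia, from 4897 to 8004 in differentiated macrophages against tumour microglia, from 4374 to 7688 in undifferentiated macrophages against tumour microglia, from 0 to 3 in differentiated against undifferentiated macrophages, from 1853 to 6133 in differentiated macrophages against normal microglia and from 1932 to 5647 in undifferentiated macrophages against normal microglia. Signs turned within these ranges, all for differences not called: Tfrc -0.14 to 0.40 units in tumour against normal microglia, Ftl1 -0.28 to 0.21, Fth1 -0.36 to 0.48, Hmox1 -0.92 to 0.46 and Slc11a2 -1.02 to 0.58 units in differentiated macrophages against tumour microglia, Ftl1 -0.32 to 0.093 and Slc11a2 -1.09 to 0.12 units in undifferentiated macrophages against tumour microglia, Ftl1 -0.021 to 0.28, Slc40a1 -0.075 to 0.47, Tfrc -0.26 to 0.089, Slc11a1 -0.30 to 0.063, Slc11a2 -0.021 to 0.73 and Cp -0.29 to 0.17 units in differentiated against undifferentiated macrophages.

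Without terms for the lost directions, the members called numbered 2 in undifferentiated macrophages against tumour microglia and 6 in undifferentiated macrophages against normal microglia. Without terms for the lost directions, the genes called numbered 0 in differentiated against undifferentiated macrophages. Reversed signs were Hmox1 0.049 units in differentiated macrophages against tumour microglia, Cp 0.004 units in differentiated against undifferentiated macrophages. With library medians subtracted, the members called numbered 3 in differentiated macrophages against normal microglia and 5 in undifferentiated macrophages against tumour microglia. With library medians subtracted, the genes called numbered 3233 in undifferentiated macrophages against normal microglia. Turned signs were Ftl1 -0.65, Fth1 -0.52 and Tfrc -0.28 units in differentiated macrophages against tumour microglia, Fth1 -0.013, Hmox1 -0.19 and Tfrc -0.29 units in undifferentiated macrophages against tumour microglia, Tfrc 0.013 units in differentiated against undifferentiated macrophages, Tfrc -0.008 units in undifferentiated macrophages against normal microglia. With library weights, the members called numbered 1 in differentiated macrophages against normal microglia, 2 in tumour against normal microglia and 3 in undifferentiated macrophages against tumour microglia. With library weights, the genes called numbered 4 in differentiated against undifferentiated macrophages, 745 in tumour against normal microglia, 1933 in differentiated macrophages against normal microglia and 2545 in undifferentiated macrophages against normal microglia. Signs turned there for Hmox1 0.42 and Slc11a2 0.066 units in differentiated macrophages against tumour microglia, Ftl1 0.056 units in undifferentiated macrophages against tumour microglia, Cp 0.046 units in differentiated against undifferentiated macrophages. With only the libraries of both populations compared, the members called numbered 0 in differentiated macrophages against tumour microglia, undifferentiated macrophages against tumour microglia and differentiated macrophages against normal microglia, 1 in undifferentiated macrophages against normal microglia and 2 in tumour against normal microglia. With only the libraries of both populations compared, the genes called numbered 0 in differentiated against undifferentiated macrophages, 9 in undifferentiated macrophages against tumour microglia, 55 in differentiated macrophages against tumour microglia, 76 in differentiated macrophages against normal microglia, 438 in undifferentiated macrophages against normal microglia and 473 in tumour against normal microglia. Opposite signs were found for Ftl1 -0.11, Fth1 -0.60 and Hmox1 0.10 units in differentiated macrophages against tumour microglia, Ftl1 0.20 and Tfrc -0.30 units in undifferentiated macrophages against tumour microglia, Slc11a1 0.14 and Slc11a2 -0.29 units in differentiated against undifferentiated macrophages. In WT mice alone, the members called and all genes called numbered 0 in each of the 6 comparisons. Reversals here were Ftl1 -0.013, Fth1 -1.17, Heph 0.35 and Txnrd1 -1.08 units in tumour against normal microglia, Fth1 -0.22, Cp 0.70 and Hephl1 -0.41 units in differentiated macrophages against tumour microglia, Ftl1 0.65, Cp 0.56 and Hephl1 -0.76 units in undifferentiated macrophages against tumour microglia, Ftl1 -0.37, Slc40a1 -0.15, Slc11a1 0.20 and Cp 0.14 units in differentiated against undifferentiated macrophages, Fth1 -1.39, Slc11a2 -0.095, Slc22a17 0.54 and Txnrd1 -0.077 units in differentiated macrophages against normal microglia, Fth1 -0.039, Slc11a2 -0.27 and Slc22a17 1.43 units in undifferentiated macrophages against normal microglia. In Pep3 mice alone, the members called numbered 0 in tumour against normal microglia, differentiated macrophages against tumour microglia, undifferentiated macrophages against tumour microglia and differentiated macrophages against normal microglia and 1 in undifferentiated macrophages against normal microglia. In Pep3 mice alone, the genes called numbered 0 in tumour against normal microglia, differentiated macrophages against tumour microglia, undifferentiated macrophages against tumour microglia and differentiated macrophages against normal microglia, 1 in differentiated against undifferentiated macrophages and 460 in undifferentiated macrophages against normal microglia. The sign turned for Slc11a2 -0.51 units in tumour against normal microglia, Hmox1 1.98, Tfrc -1.21, Slc11a2 0.76 and Hebp1 -1.87 units in differentiated macrophages against tumour microglia, Ftl1 0.28, Fth1 -0.016, Tfrc -1.03 and Slc11a2 0.43 units in undifferentiated macrophages against tumour microglia, Fth1 0.022 units in differentiated against undifferentiated macrophages, Tfrc -0.031, Cybrd1 -0.99 and Heph -0.63 units in differentiated macrophages against normal microglia, Slc11a2 -0.078 and Trf 0.016 units in undifferentiated macrophages against normal microglia. Without the 9 libraries, terms kept, the members called numbered 0 in each of the 6 comparisons. Without the 9 libraries, terms kept, the genes called numbered 0 in tumour against normal microglia, differentiated macrophages against tumour microglia and differentiated macrophages against normal microglia, 1 in differentiated against undifferentiated macrophages, 3 in undifferentiated macrophages against tumour microglia and 4 in undifferentiated macrophages against normal microglia. Signs changed in this fit for Fth1 -0.28, Hmox1 0.84, Tfrc -1.53, Slc11a2 0.071 and Hebp1 -1.84 units in differentiated macrophages against tumour microglia, Ftl1 0.24 and Tfrc -0.91 units in undifferentiated macrophages against tumour microglia, Slc11a1 0.17 units in differentiated against undifferentiated macrophages, Tfrc -1.03, Slc22a17 0.80 and Hp -0.28 units in differentiated macrophages against normal microglia, Tfrc -0.40 and Slc22a17 0.96 units in undifferentiated macrophages against normal microglia. Without the 9 libraries and the terms, the members called numbered 1 in tumour against normal microglia and differentiated macrophages against tumour microglia and 3 in differentiated macrophages against normal microglia. Without the 9 libraries and the terms, the genes called numbered 0 in differentiated against undifferentiated macrophages, 133 in tumour against normal microglia and 3255 in differentiated macrophages against normal microglia. The sign was opposite for Hmox1 0.29 units in differentiated macrophages against tumour microglia. Beside counts of 0, limma gave at most 2 of the 8 members an unadjusted p below 0.05.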
